A study of Mus musculus with 6 samples.

Results

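The genes described here encode the subunits of the mitochondrial respiratory chain and of the ATP synthase. They were taken by name: every non-control probe whose gene name in the array files begins with Ndufa, Ndufb, Ndufc, Ndufs, Ndufv, Uqcr, Cox4, Cox5, Cox6, Cox7, Cox8 or Atp5, or is Sdha, Sdhb, Sdhc, Sdhd, Cycs or Cyc1. This gave 120 of 41174 probes, which carry 85 gene names. Of the 85, 80 encode structural subunits or cytochrome c, with 35 in complex I, 4 in complex II, 8 in complex III, 17 in complex IV, 15 in complex V and Cycs as the mobile carrier. The other 5 share a name stem only: the complex I assembly factors Ndufaf1 and Ndufa12l (now Ndufaf2), the supercomplex factor Cox7a2l, Cox4nb (now Emc8, a protein of the endoplasmic reticulum) and Atp5s (now Dmac2l). Ndufa4 was counted with complex IV, where its protein resides.

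The study tied the left ureter of 3 CD-1 mice, numbered 495, 485 and 512, a procedure known as unilateral ureteral obstruction and used as a model of renal fibrosis. The untied right kidney of each animal, here called contralateral, was the internal control, so every ligated kidney has a partner from the same mouse. CD-1 mice are outbred, no transgene or drug is named, and the age of the mice and the time between ligation and sampling are not given in the sources used here. Total RNA from each of the 6 kidneys was read on 1 single-colour Agilent array. The labels give kidney as the tissue but primary cells as the cell type. Umod, a defining product of the thick ascending limb, stood between 6.40 and 7.71 log2 units over the 75th percentile of its array in all 6 samples, and Kap, a proximal tubule transcript, between 7.56 and 9.02.

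The respiratory chain passes electrons from NADH (through complex I) and from succinate (through complex II) to ubiquinone, on to cytochrome c through complex III, and to oxygen at complex IV. Complexes I, III and IV pump protons across the inner mitochondrial membrane, and complex V, the ATP synthase, uses the return flow to make ATP. Most subunits are encoded in the nucleus and imported, while a small set of core subunits is made from mitochondrial DNA. In the kidney, the proximal tubule and the thick ascending limb are packed with mitochondria that supply the ATP for salt and solute transport.

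Many nuclear genes of the chain have CpG-rich promoters with sites for NRF1, for ETS factors such as GABPA, and for YY1. The promoters below run from 250 bases before to 50 bases after the start site and were taken from RefSeq on GRCm38. They are shown because Sdhb and Cycs were among the subunits with the largest fall, and Cox6b1, Cox6b2 and Cox7a1 are complex IV genes that behaved differently. Capitals mark an NRF1 core (GCGCANGCG) or an ETS core (CCGGAAG) found on either strand. The Sdhb window is chr4:140961021-140961320 (plus strand), Cycs chr6:50566520-50566819 (minus), Cox6b1 chr7:30626065-30626364 (minus), Cox6b2 chr7:4753045-4753344 (minus) and Cox7a1 chr7:30183921-30184220 (plus).
Sdhb: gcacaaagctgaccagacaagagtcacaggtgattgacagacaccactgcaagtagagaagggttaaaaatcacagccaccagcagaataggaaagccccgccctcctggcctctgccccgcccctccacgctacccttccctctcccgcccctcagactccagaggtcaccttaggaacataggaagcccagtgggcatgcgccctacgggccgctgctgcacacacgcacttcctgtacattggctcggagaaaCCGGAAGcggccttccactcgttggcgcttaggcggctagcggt
Cycs: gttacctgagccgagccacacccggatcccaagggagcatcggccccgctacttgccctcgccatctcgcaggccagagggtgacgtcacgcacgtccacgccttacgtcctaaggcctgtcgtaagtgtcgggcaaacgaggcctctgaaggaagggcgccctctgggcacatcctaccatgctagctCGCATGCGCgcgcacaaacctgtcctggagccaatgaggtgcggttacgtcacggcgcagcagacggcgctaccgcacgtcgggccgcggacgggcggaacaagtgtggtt
Cox6b1: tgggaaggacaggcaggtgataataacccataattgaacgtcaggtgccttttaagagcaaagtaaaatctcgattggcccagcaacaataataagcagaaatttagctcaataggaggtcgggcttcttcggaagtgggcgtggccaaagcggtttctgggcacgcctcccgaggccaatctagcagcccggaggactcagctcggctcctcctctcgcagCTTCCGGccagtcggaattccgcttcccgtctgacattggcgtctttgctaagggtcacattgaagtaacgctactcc
Cox6b2: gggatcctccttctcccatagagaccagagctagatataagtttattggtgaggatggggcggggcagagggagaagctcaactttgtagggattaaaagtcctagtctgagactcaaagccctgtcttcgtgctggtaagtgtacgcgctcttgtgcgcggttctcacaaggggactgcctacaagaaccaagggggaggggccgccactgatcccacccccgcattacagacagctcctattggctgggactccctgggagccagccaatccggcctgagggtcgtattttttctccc
Cox7a1: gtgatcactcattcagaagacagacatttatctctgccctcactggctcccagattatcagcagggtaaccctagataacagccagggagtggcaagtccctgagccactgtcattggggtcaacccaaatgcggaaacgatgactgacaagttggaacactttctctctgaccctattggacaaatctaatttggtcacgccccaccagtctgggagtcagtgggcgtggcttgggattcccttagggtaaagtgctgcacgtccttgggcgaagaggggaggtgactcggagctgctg

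The Cycs window held 1 NRF1 core, whose first base lay at -61 from the start site, and no ETS core. Sdhb held 1 ETS core at 7 bases past the start, and Cox6b1 held 1 at -28. The windows of Cox6b2 and Cox7a1 held neither. Those of Ndufa10, Uqcrfs1 and Atp5g1, which are not printed here, also held neither. Among genes with a window, these had the largest called falls of complexes I, III and V.

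Levels are given as log2 of the processed signal over the 75th percentile of the same array, and changes as ligated minus contralateral on that log2 scale, ± SE from a limma fit that compares the kidneys within each mouse (n = 3 pairs). A gene was called where the Benjamini-Hochberg adjusted p over all 19599 genes tested was under 0.05. On the contralateral arrays 65.7% to 69.5% of spots were well above background and on the ligated arrays 72.1% to 74.7%, and no spot was saturated. The contralateral kidney of mouse 512 stood apart from the other contralateral kidneys. Its 75th percentile was a signal of 1105, against 741 (mouse 495) and 671 (mouse 485) on the same side and 1068 to 1433 in the ligated kidneys. Mouse 512 was also the only mouse on slide 2, so that animal and that slide cannot be told apart. The other mice shared slide 1. Over all genes, 2878 fell and 3137 rose. Had each array been centred on its median instead, 5937 would have been called lower and 2568 higher, and scaling to the spike-in spots gave 676 lower and 2374 higher.

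Transcripts of the respiratory chain were lower in the ligated kidneys in all 5 complexes. Of the 85 genes, 82 were tested, 63 fell and 1 rose, where 14.7% of all genes tested fell and 16% rose. A fall of at least 2-fold was called for 60 members, against 8.94% of all genes. In 78 members every ligated kidney lay below every contralateral kidney, which held for 28.8% of all genes. The median change over the 77 subunits tested was -1.25, a 2.38-fold fall, while the median of all genes was -0.01. Of the 18 members not called, 16 had an adjusted p between 0.0508 and 0.0942, and the remaining ones were Cox6a2 and Cox7a2l. The other 3 members, Cox4i2, Cox8b and Cox8c, are tissue-restricted isoforms of complex IV whose probes were too dim to test.

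The size of the difference varied between animals. Mouse 495 had a median difference over the subunits of -1.49, mouse 485 of -1.67 and mouse 512 of -0.57. Mouse 512 had the smallest difference of the 3 for 80 of the 82 members tested, against 62.7% of all genes. This came with a lower contralateral kidney, not with a higher ligated one. Over the 74 subunits that are not tissue-restricted isoforms, the contralateral median level was 6.39 (mouse 495), 6.49 (mouse 485) and 5.26 (mouse 512), and the ligated one 4.72, 4.60 and 4.67. The 3 ligated kidneys thus lay within a narrow band, and the contralateral kidney of mouse 512 lay between that band and the other contralateral kidneys. Its level was below both other contralateral kidneys in 79 of 82 members, against 44.1% of all genes. For all 74 of these subunits, the ligated kidneys lay below the contralateral ones without overlap.

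Without mouse 512, which is the fit within slide 1, the median of the members was -1.56 and 78 fell (28.1% of all genes), and with slide as the block 77 fell (20.3%). Without mouse 495 or without mouse 485, limma called no member and no other gene (0%). At an unadjusted p under 0.05, 38 and 40 members were lower in these fits. Of all genes, 4978 of 19722 and 5002 of 19765 passed that threshold in either direction. Scaling to the spike-in spots called 6 members lower (3.45% of all genes): Ndufs1, Sdhb, Cyc1, Uqcrfs1, Cycs and Cox7a1, the last not called as reported. Quantile normalization called 26 (13.2%) with a median of -0.57, and a test of dim probes too called 4 (3.2%). Without the pairing of kidneys 73 fell (14.3%).

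**Figure D1:**
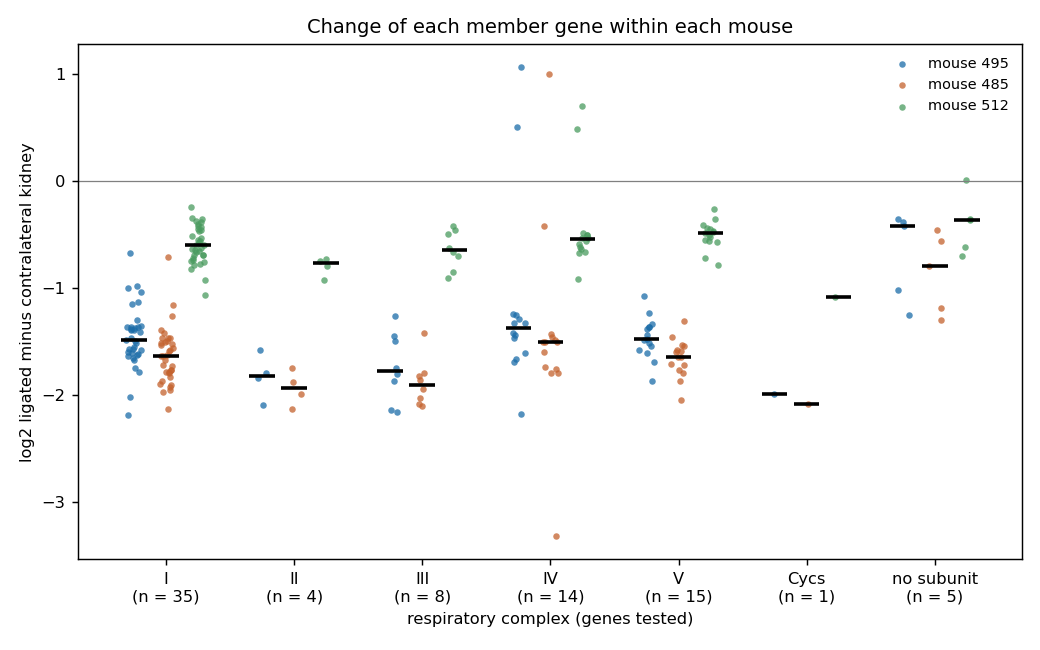
Difference between the ligated and the contralateral kidney (log2 scale, y axis) of every member tested, by complex (x axis) and by mouse (colour). Each point is 1 gene and each black bar the median of its column; the medians in mouse 512 lie nearer to 0 than in mice 495 and 485 in every complex, and only Cox6b2 and Cox6a2 lie clearly above 0, Cox6a2 in mice 495 and 512 only.

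Complex I takes electrons from NADH and is the largest assembly of the chain. Of its 35 nuclear-encoded members 27 fell, with a median of -1.25 and a range from -1.70 to -0.54. Of the 7 core subunits, which carry the flavin and the iron-sulphur clusters, 6 fell (median -1.34). Of the 28 supernumerary subunits, which surround that core, 21 fell (median -1.21). In all 35 the ligated kidneys lay below the contralateral kidneys without overlap. The 8 that were not called had adjusted p between 0.0511 and 0.0779.

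Ndufs1, which carries iron-sulphur clusters on the path from NADH, had the largest fall of complex I. Its contralateral level was 6.04, 6.12 and 4.51 in mice 495, 485 and 512, and its ligated level 3.85, 3.98 and 3.73. The ligated values were close together and the contralateral value of mouse 512 was low. The change was -1.70 ± 0.35 (3.25-fold, adjusted p = 0.0377). Ndufa10, a supernumerary subunit on the matrix side, followed with -1.64 ± 0.28 (adjusted p = 0.0316). Ndufv1, which binds the flavin and NADH, fell by 1.47 ± 0.31 on the log2 scale, Ndufv2, its partner in the same module, by 1.34 ± 0.25, and Ndufab1, the mitochondrial acyl carrier protein, by 1.44 ± 0.26. Ndufb6, of the membrane arm, had the smallest adjusted p of all members (0.0237): it fell by 1.28 ± 0.16 and by at least 1.06 in each mouse.

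Ndufs3, another core subunit, changed by -1.27 ± 0.33 and missed the threshold (adjusted p = 0.0530), with a difference of only -0.43 in mouse 512. At the other end of complex I stood Ndufa7, a supernumerary subunit. Its contralateral level was 5.60, 5.30 and 4.93 in mice 495, 485 and 512, and its ligated level 4.92, 4.59 and 4.69. The ligated kidneys lay just below the contralateral ones, and the change of -0.54 ± 0.17 was not called (adjusted p = 0.0779). Under quantile normalization its sign turned (0.15). Ndufs4, an accessory subunit near the NADH site, fell by 0.94 ± 0.20, less than most of the complex.

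Complex II, succinate dehydrogenase, is also an enzyme of the citric acid cycle and is encoded wholly in the nucleus. All 4 of its genes fell, with a median of -1.50. Sdhb, the iron-sulphur subunit, had contralateral levels of 5.56, 5.77 and 4.11 in mice 495, 485 and 512 and ligated levels of 3.47, 3.64 and 3.18. Sdha, the flavoprotein that oxidises succinate, had contralateral levels of 3.58, 3.80 and 2.36 and ligated levels of 1.74, 1.81 and 1.64. In both genes the contralateral kidney of mouse 512 was more than 1 log2 unit below the other contralateral kidneys and still above every ligated kidney. The change was -1.72 ± 0.31 for Sdhb (3.28-fold, adjusted p = 0.0325) and -1.52 ± 0.31 for Sdha (2.86-fold, adjusted p = 0.0375).

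The membrane anchors of complex II, Sdhc and Sdhd, hold the haem and help to form the ubiquinone site. The contralateral level of Sdhc was 5.06, 5.31 and 4.11, and its ligated level 3.26, 3.43 and 3.37. That of Sdhd was 6.43, 6.59 and 5.47, against 4.85, 4.85 and 4.67 in the ligated kidneys. Neither gene overlapped between the groups. Sdhc fell by 1.47 ± 0.29 (adjusted p = 0.0354) and Sdhd by 1.37 ± 0.25 (adjusted p = 0.0325).

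Complex III passes electrons from ubiquinol to cytochrome c. Of its 8 nuclear-encoded members 7 fell, with a median of -1.42. Cyc1, cytochrome c1, had contralateral levels of 6.20, 6.36 and 5.12 in mice 495, 485 and 512 and ligated levels of 4.04, 4.28 and 4.22. The fall was largest in mouse 495 and smallest in mouse 512, and the groups did not overlap. It came to -1.71 ± 0.32 (3.28-fold, adjusted p = 0.0331). Uqcrfs1, the Rieske iron-sulphur protein, fell by 1.70 ± 0.33, so both redox subunits encoded in the nucleus headed the complex.

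The core proteins Uqcrc1 and Uqcrc2, which lie on the matrix side, fell by 1.52 ± 0.33 and 1.44 ± 0.29. Uqcrb, which lies near a ubiquinone site, changed by -1.25 ± 0.31 without passing the threshold (adjusted p = 0.0515). The hinge protein Uqcrh, which helps cytochrome c bind to cytochrome c1, changed least: its contralateral level was 7.46, 7.49 and 6.55 and its ligated level 6.20, 6.07 and 6.12. It fell by 1.04 ± 0.26 (adjusted p = 0.0494).

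Cycs, the cytochrome c that shuttles electrons from complex III to complex IV, had contralateral levels of 6.65, 6.99 and 5.51 in mice 495, 485 and 512 and ligated levels of 4.66, 4.91 and 4.43. Every ligated kidney lay below the lowest contralateral kidney, that of mouse 512. Cycs fell by 1.72 ± 0.26 (3.29-fold, adjusted p = 0.0285), and its difference in mouse 512, -1.08, was the largest of any subunit in that animal. All 3 of its probes were lower in the ligated kidneys, with a change of -1.72 for the brightest and -1.95 for the dimmest. Cycs has processed copies elsewhere in the genome, and whether their transcripts share these probes was not tested.

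Complex IV, cytochrome c oxidase, reduces oxygen to water, and several of its small nuclear-encoded subunits exist as isoforms that differ between tissues. All 11 ubiquitous subunits fell, with a median of -1.19 and a range from -1.46 to -1.08. None of the 3 tested tissue-restricted isoforms was called lower, although Cox7a1 was under some alternatives, and 1 of them, Cox6b2, rose. Among the ubiquitous subunits were Cox4i1 (-1.11 ± 0.25), Cox5a (-1.13 ± 0.23) and Cox5b (-1.27 ± 0.28), and Ndufa4, named for complex I but found in complex IV, fell by 1.35 ± 0.29.

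The Cox6b pair showed opposite changes. Cox6b1, the ubiquitous form of a subunit that faces the intermembrane space, had contralateral levels of 4.49, 4.56 and 3.43 in mice 495, 485 and 512 and ligated levels of 2.82, 2.77 and 2.51. Cox6b2, the form known from testis, had contralateral levels of -1.13, -1.69 and -0.88 and ligated levels of -0.07, -0.69 and -0.18. Every ligated kidney was below every contralateral kidney for Cox6b1 and above every one for Cox6b2. Of all genes, 28.8% lay wholly below in this way and 24.7% wholly above. Cox6b1 fell by 1.46 ± 0.23 (2.74-fold, adjusted p = 0.0296), while Cox6b2 rose by 0.92 ± 0.16 (1.89-fold, adjusted p = 0.0311), with differences of 1.06, 1.00 and 0.70. The Cox6b2 probe was well above background on all 6 arrays, although dim.

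The call on Cox6b2 was lost with spike-in scaling (adjusted p = 0.120), with dim probes tested too (0.0541), without the pairing of kidneys (0.0548), without mouse 495 (0.195) and without mouse 485 (0.179); over all alternatives its change ran from 0.61 to 1.19. By the files' mm8 coordinates, its probe lies at chr7:4354973-4355032 on the minus strand and that of Cox6b1 at chr7:30333316-30334812, also on the minus strand, a stretch longer than the probe itself.

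The other isoform pairs were mixed. Cox7a2, the ubiquitous form, had contralateral levels of 7.12, 7.08 and 6.07 and ligated levels of 5.43, 5.35 and 5.40, and fell by 1.36 ± 0.28 (adjusted p = 0.0375). Cox7a1, the form of heart and skeletal muscle, had contralateral levels of 3.01, 3.43 and 0.83 and ligated levels of 0.84, 0.12 and 0.30. The contralateral kidney of mouse 512 was no higher than the ligated kidney of mouse 495, so the groups touched. The change of -2.01 ± 0.58 had the largest size of any member but was not called (adjusted p = 0.0657). Without mouse 512 it was -2.74 and called (adjusted p = 0.00794). It was also called with median centring (adjusted p = 0.0406), the deposited value table (0.0407), slide as the block (0.0355) and spike-in scaling (0.0290), where no other complex IV gene was called.

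Cox7a2l, a related protein that links complexes into supercomplexes, had contralateral levels of 3.63, 3.72 and 3.47 and ligated levels of 3.21, 3.16 and 3.48. Both kidneys of mouse 512 were alike, and the change of -0.33 ± 0.18 was not called (adjusted p = 0.218), with the sign turned under quantile normalization (0.22). Cox6a1, the ubiquitous form, had contralateral levels of 8.62, 8.78 and 7.94 and ligated levels of 7.37, 7.27 and 7.45, and fell by 1.08 ± 0.25 (adjusted p = 0.0455). Cox6a2, the heart and muscle form, had contralateral levels of -2.84, -2.03 and -2.82 and ligated levels of -2.34, -2.46 and -2.34, which overlapped. Its change of 0.19 ± 0.25 was not called (adjusted p = 0.579), and its sign turned when arrays were centred on the median (-0.12) or quantile normalized (-0.04).

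Cox4i1 had contralateral levels of 7.36, 7.53 and 6.68 and ligated levels of 6.07, 6.02 and 6.15, while the probe of Cox4i2, its lung isoform, was well above background on 0 of 6 arrays. Cox8a had contralateral levels of 7.39, 7.33 and 6.47 and ligated levels of 5.96, 5.74 and 5.91, and fell by 1.19 ± 0.26. The probe of Cox8b, the heart and muscle form, was well above background on 2 arrays of each group and that of Cox8c on 0 arrays. No fold is given for these dim isoforms.

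**Figure D2:**
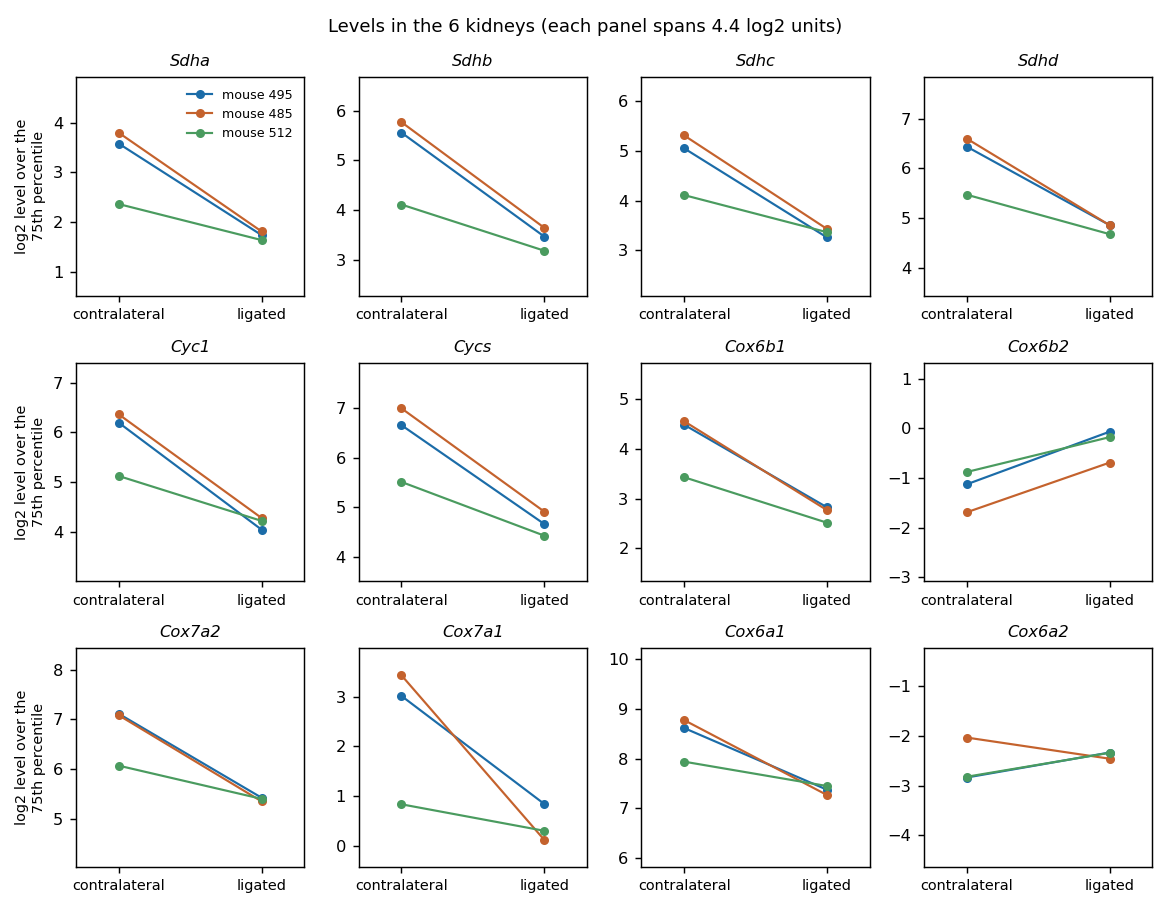
Level of 12 members (log2 over the array's 75th percentile, y axis, the same span in each panel) in the contralateral and the ligated kidney (x axis), with a line joining the kidneys of each mouse. The line of mouse 512 starts lower than the others in the complex II genes, Cyc1, Cycs, Cox6b1, Cox7a2, Cox7a1 and Cox6a1 and ends near them, while all 3 lines of Cox6b2 slope upward.

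Complex V makes ATP from the proton gradient with a rotating ring of c subunits and a catalytic F1 head. Of its 15 members 11 fell, with a median of -1.17 and a range from -1.57 to -0.95. In the F1 head 4 of 5 fell, in the c ring 3 of 3, in the peripheral stalk 2 of 4 and among the membrane subunits 2 of 3. The 4 that were not called, Atp5e, Atp5h, Atp5k and Atp5o, had adjusted p between 0.0508 and 0.0669. Atp5a1 and Atp5b, which form the catalytic ring of the head, fell by 1.26 ± 0.28 and 1.17 ± 0.28, and Atp5d, of the central stalk, by 1.40 ± 0.28.

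The c ring is built from one mature protein that 3 genes encode. Atp5g1 had contralateral levels of 5.60, 5.67 and 4.60 in mice 495, 485 and 512 and ligated levels of 3.73, 3.62 and 3.82. Atp5g2 had contralateral levels of 5.85, 5.79 and 5.17 and ligated levels of 4.77, 4.48 and 4.72, and Atp5g3 had 7.93, 8.14 and 7.05 against 6.57, 6.50 and 6.56. No ligated kidney reached a contralateral one in any of the 3 genes. Atp5g1 had the largest fall of complex V (-1.57 ± 0.31, adjusted p = 0.0356) and Atp5g2 the smallest difference (-0.95 ± 0.22, adjusted p = 0.0465), with Atp5g3 between them (-1.16 ± 0.28, adjusted p = 0.0468). The difference between these genes was not tested.

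The complexes kept nearly the same order in each mouse. Complex II had the largest median fall and complex III the next in all 3 animals, followed by I, V and IV in mouse 495, V, I and IV in mouse 485 and I, IV and V in mouse 512. The span between the first and the last complex was 0.44, 0.43 and 0.28 log2 units in those mice. The median of complex II was below that of complex I by 0.33, 0.30 and 0.17, and that of complex III was below complex I by 0.29, 0.27 and 0.04, so the order of III and I in mouse 512 rested on a small gap. Complexes II and III came first under each of 16 alternatives, but several of those could not alter the order. Centring on the median or the spike-in spots, or using the deposited value table, shifts all genes of an array alike. Changing the block leaves the change of each gene as it was. The orders are descriptions with 3 animals and no test, and complex II has only 4 genes.

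**Figure D3:**
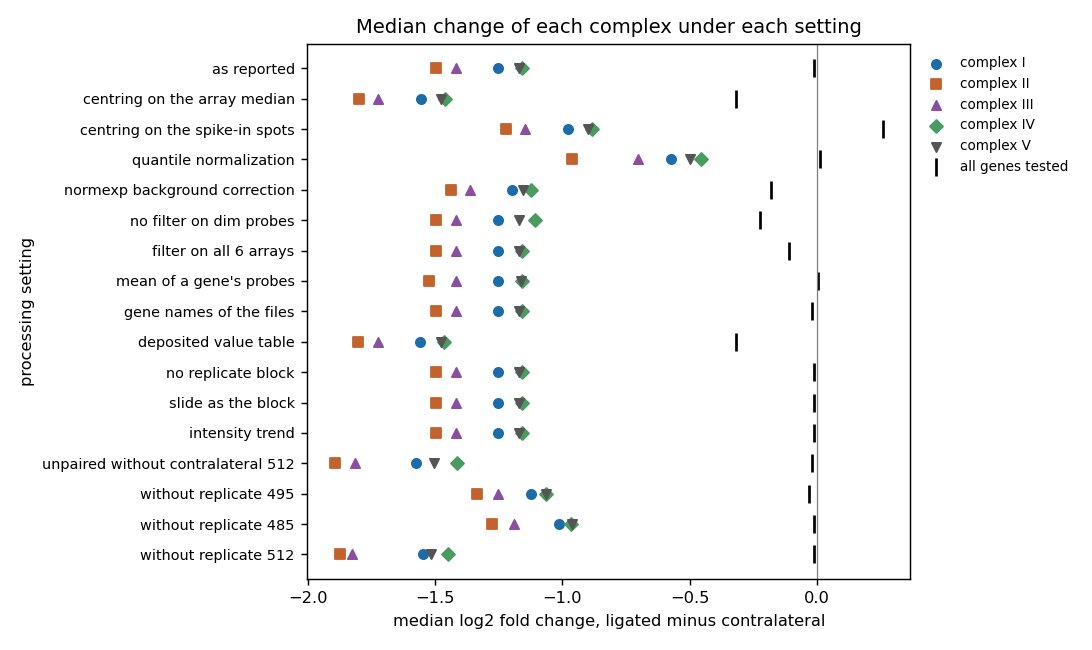
Median log2 change (x axis) of the members of each complex (symbols) and of all genes tested (black bar) under the reported processing and 16 alternatives (y axis). Complexes II and III lie furthest to the left in every row, while quantile normalization brings all 5 medians nearer to 0.

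Which subunits fell more was similar between animals. Over the 77 subunits tested, the differences in mice 495 and 485 had a Pearson r of 0.929 across genes. For mouse 512 it was 0.835 with mouse 495 and 0.725 with mouse 485, and 0.636 and 0.571 over the 74 genes without the tissue-restricted isoforms. Genes are not independent replicates, and mice 495 and 485 share a slide. The 5 name relatives had a median of -0.52, and 2 of 5, the assembly factors Ndufaf1 (-1.09 ± 0.19) and Ndufa12l (-0.94 ± 0.18), fell.

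Probes of one gene pointed the same way. Of the 120 probes 114 passed the filter on dim probes, and the 25 genes with more than 1 such probe had the same sign in all of them. The dimmest probe of a gene had the larger fall in 15 genes and the smaller one in 10. Where it lay more than 3 log2 units below the brightest, it showed the smaller fall in 9 of 10 genes: for Ndufb2, of the membrane arm of complex I, the change was -1.15 by the brightest probe and -0.22 by the dimmest. Most of these dimmest probes, that of Ndufb2 among them, are assigned to another transcript entry than the brightest. Brightness and transcript thus cannot be told apart there. In the 15 genes with closer probes, the dimmest showed the larger fall in 14, as for Sdha, with -1.52 and -1.63. Sizes for single genes therefore depend on the probe.

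Most members were bright, and other bright genes were also lower in the ligated kidneys at the median. Of 948 other genes with a mean level of at least 4, 35.7% fell and the median change was -0.56, against 53 of 65 members and -1.25. Between levels 2 and 4, 29.2% of 2580 other genes fell, with a median of -0.43, against 8 of 9 members and -1.37. Between levels 0 and 2, 18.1% of 4465 other genes fell (median -0.19), against 2 of 6 members (-1.01). Below level 0, where Cox6b2 and Cox6a2 lie, 7.96% of 11524 other genes fell and their median was 0.25. Dim genes thus tended upward, and the part of this in the rise of Cox6b2 was not tested. The 99th percentile of the array, in log2 units over its 75th, was 5.87, 5.97 and 5.34 on the contralateral arrays (mice 495, 485, 512) and 5.04, 4.99 and 5.04 on the ligated ones. This spread at the bright end moved with the members' levels; its part in their change was not tested.

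Many genes that work beside the chain fell too. Those of mitochondrial DNA that were tested had negative estimates (median -1.03) but were not called. Of the 13 subunits encoded by mitochondrial DNA, 3 matched a probe by name, and none was called: mt-Nd4l changed by -1.09 ± 0.28 (adjusted p = 0.0534), mt-Cytb by -1.03 ± 0.31 (0.0678) and mt-Co2 by -0.68 ± 0.30 (0.144), the last with a difference of 0.07 in mouse 512. Of 45 assembly factors of complexes I to V, 2 of them members, 31 fell and none rose (median -0.94). Coa6, for complex IV, fell by 1.55 ± 0.30, and Ecsit and Acad9, for complex I, by 1.52 ± 0.26 and 1.41 ± 0.34. Of the ATP synthase accessory genes outside the name rule, Atp5mj fell by 1.27 ± 0.23 and Atp5mk by 1.14 ± 0.22, while the inhibitor Atp5if1 was not called (-0.86 ± 0.24, adjusted p = 0.0615).

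Mitochondrial genes of other functions followed the same direction. Of 22 genes of the outer membrane and the import machinery 17 fell (median -0.94), among them the import components Timm9 (-1.46 ± 0.22) and Timm17a (-1.45 ± 0.20) and the channel Vdac1 (-1.26 ± 0.27). Of 3 carriers, the adenine nucleotide carrier Slc25a5 fell by 1.54 ± 0.32 and the phosphate carrier Slc25a3 by 1.26 ± 0.21. Of 10 chaperones and proteases 8 fell (median -1.23), led by Hspd1 (-1.52 ± 0.25), Trap1 (-1.37 ± 0.19) and Clpx (-1.33 ± 0.19). None of these lists had a member that rose.

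Of 13 nuclear regulators of respiratory genes 6 fell and none rose (median -0.72). The fatty acid receptor Ppara fell by 2.16 ± 0.27 and the oestrogen-related receptor Esrra by 1.49 ± 0.31. Perm1, a regulator of mitochondrial genes in muscle, was called lower too, but its probe was well above background on only 2 of 3 ligated arrays (levels of -6.19, -5.54 and -6.59, against -1.57, -2.21 and -4.81), so no size is given. Esrra had contralateral levels of 4.70, 4.73 and 3.14 in mice 495, 485 and 512 and ligated levels of 2.82, 2.83 and 2.46. These have the pattern of the subunits, with mouse 512 low in the contralateral kidney. The coactivator Ppargc1a fell by 0.77 ± 0.17 (adjusted p = 0.0397). Nrf1, with 0.34 ± 0.14 (adjusted p = 0.129), and Gabpa, with -0.21 ± 0.16 (adjusted p = 0.342), were not called.

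The promoters of the subunits often held short motifs of known regulators. Promoter windows matched for 68 of the 85 members, 62 of them subunits that are not tissue-restricted. Both strands were searched, and a gene could hold several motifs. Of the 62, 33.9% held the NRF1 core, against 9.63% of 17492 protein-coding genes, 25.8% held the ETS core, against 12.9%, and 16.1% held the YY1 core AAGATGGC, against 3.57%. At least 1 of these was in 39 of the 62 (62.9%), against 22.8% of all genes. The oestrogen-related receptor core TCAAGGTCA was in 2 of the 62 (3.23%), against 0.377%, a higher share that rests on very few genes. The SP1 box GGGCGG was in 40.3%, against 49.2%. The GC content of the windows was 58.7% at the median, against 56.3%.

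Subunits with and without a motif had much the same median change. It was -1.25 in the 21 subunits with the NRF1 core and -1.25 in the 41 without it. It was -1.22 with and -1.25 without the ETS core, and -1.24 with and -1.25 without the YY1 core. Of the 10 genes with the YY1 core, 7 belong to complex I, among them Ndufa9 and Ndufs7, and 3 to complex V. That was 22.6% of the complex I genes with a window and 21.4% of those of complex V. By count, 16 of 21 subunits with the NRF1 core fell, against 35 of 41 without it, 11 of 16 with the ETS core, against 40 of 46, and 10 of 10 with the YY1 core, against 41 of 52. The windows of the 3 tissue-restricted isoforms that matched, Cox6b2 and Cox7a1 among them, held none of the NRF1, ETS, YY1 and oestrogen-related receptor cores.

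Markers of kidney cell types moved in the same comparison. Of 14 proximal tubule markers 9 fell and none rose (median -2.25), with Slc22a8 and Slc22a6, transporters of organic anions, at -4.10 ± 0.93 and -3.60 ± 0.78 and the dicarboxylate carrier Slc13a3 at -3.13 ± 0.47. The summed level of the 14, in multiples of the array's 75th percentile, was 680 to 2471 in the contralateral and 374 to 517 in the ligated kidneys. As with the subunits, the contralateral kidney of mouse 512 was low, at a median of -2.03 log2 units from the other contralateral kidneys. Of 7 thick ascending limb and distal tubule markers tested 2 fell, Slc12a3 (-1.83 ± 0.43) and Cldn10 (-1.35 ± 0.27), with summed levels of 117 to 369 and 127 to 170. Umod (-0.17 ± 0.35, adjusted p = 0.712), Slc12a1 (-0.56 ± 0.72, 0.557) and Cldn16 (0.13 ± 0.17, 0.555) were not called. Their differences in mouse 512 were 0.75, 1.45 and 0.36. Kcnj1 (-0.96 ± 0.33, adjusted p = 0.0917) and Calb1 (-3.42 ± 0.87, 0.0526) were not called either. Of 8 collecting duct markers 6 fell, led by the water channels Aqp2 (-2.88 ± 0.15) and Aqp3 (-2.66 ± 0.35) and the anion exchanger Slc26a4 (-2.54 ± 0.26), with sums of 21.1 to 53.9 and 6.44 to 10.47.

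Most markers of fibroblasts and macrophages rose. Of 8 fibroblast and myofibroblast markers 7 rose, led by the collagen genes Col1a1 (3.86 ± 0.91), Col3a1 (3.75 ± 0.82) and Col1a2 (3.32 ± 0.64), and their summed level was 17.6 to 77.7 in the contralateral and 132 to 253 in the ligated kidneys. Of 8 macrophage markers 7 rose, led by Adgre1 (3.42 ± 0.48), C1qa (3.40 ± 0.33) and Lyz2 (3.24 ± 0.38), with sums of 17.2 to 88.4 and 207 to 241. Of 8 lymphocyte markers 3 rose, Cd3g (3.09 ± 0.25), Lck (2.86 ± 0.25) and Ptprc (2.61 ± 0.34), with sums of 0.835 to 1.75 and 4.59 to 6.72. Of 5 endothelial markers 4 rose, led by Cdh5 (1.31 ± 0.15), Tie1 (0.97 ± 0.19) and Pecam1 (0.95 ± 0.15), with sums of 6.63 to 9.59 and 10.6 to 13.1. Of 5 podocyte markers 2 rose, Wt1 (1.90 ± 0.35) and Synpo (1.42 ± 0.25), with sums of 1.71 to 2.80 and 4.23 to 5.12.

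Of the 6 skeletal and cardiac muscle markers, whose tissue uses the isoforms Cox6a2, Cox7a1 and Cox8b, only Tnnt2 and Tnni3 were bright enough to test, and both were called higher. Tnni3 rose by 1.64 ± 0.17, and for Tnnt2, well above background on only 2 of 3 contralateral arrays, no size is given. The pair had summed levels of 0.0416 to 0.0965 and 0.154 to 0.317. The brown fat marker Ucp1 was too dim to test, and Cidea was not called (-0.57 ± 0.51, adjusted p = 0.403). Fewer cells of a type and less RNA per cell cannot be told apart in such bulk RNA, and the part of these cell types in the change of the respiratory genes was not tested.

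**Figure D4:**
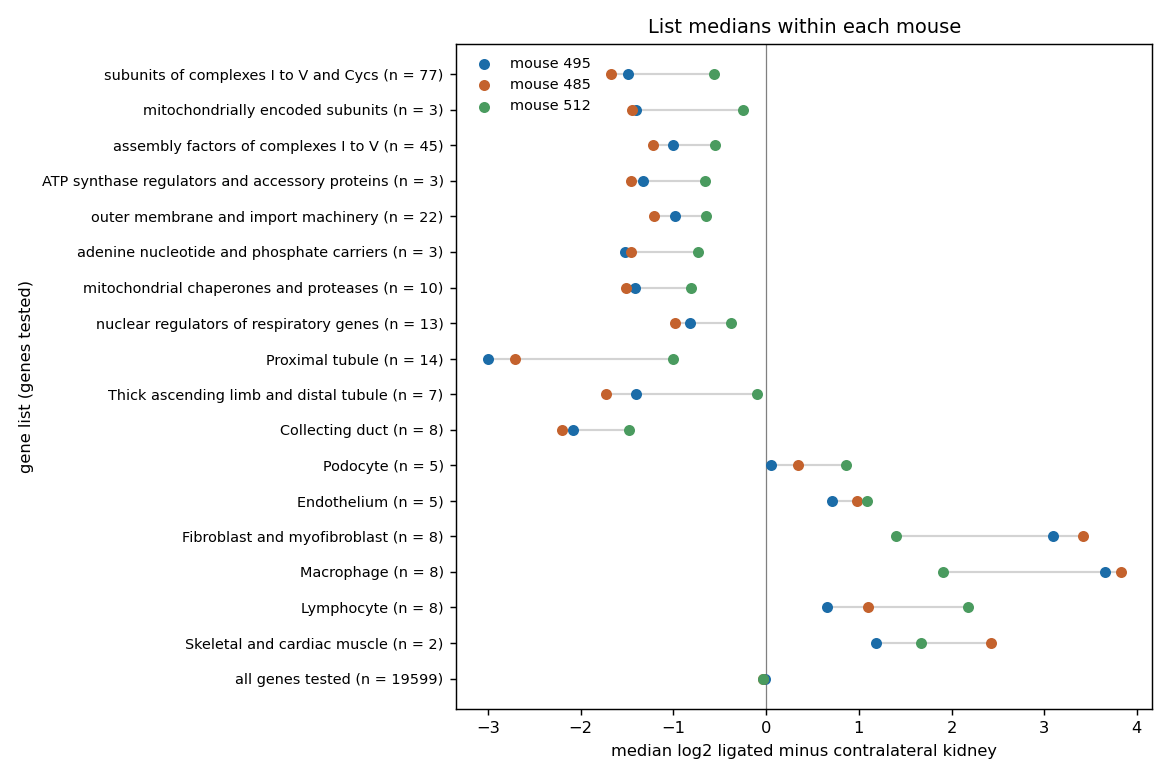
Median log2 difference between the ligated and the contralateral kidney (x axis) for the subunits, for lists of other mitochondrial and regulatory genes, for cell type markers and for all genes tested (y axis, number of genes tested in brackets). Each point is 1 mouse; the mitochondrial lists and the proximal tubule and collecting duct markers lie below 0 in all 3 mice and the fibroblast and macrophage markers above 0.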

How the data were processed

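The deposited scanner tables hold 1 single-colour array per kidney. Per the file headers, the processed signal is an intensity on a linear scale, corrected for background within the array by Agilent Feature Extraction (10.5.1.1 in the headers, 9.1 in the submitters' processing notes) and not scaled between arrays. The authors also deposited a value table, a linear ratio of that signal to the array's median (99% of spots within 0.0029%), used as an alternative. The deposited flags per spot (well above background, saturated, outlier) are 0 or 1.

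Control spots and outlier spots (43 to 79 per array) were removed, which left 41174 probes. The signal was put on the log2 scale, centred on the array's 75th percentile and averaged over the spots of each probe. Probes were kept if above background (in a share of at least 0.5 of their spots) on all 3 arrays of 1 group, and the brightest probe stood for its gene. Members went by the files' gene names, other genes by current symbol through RefSeq accessions (24490 probes). Probe coordinates are mm8, per the file headers, and promoter windows are GRCm38.

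The test of each gene was limma's, two-sided (lmFit then eBayes; limma version 3.58.1, R version 4.3.3). Mouse was a fixed block, and p-values were adjusted by Benjamini-Hochberg over 19599 genes. The fit was tested on simulated data. It has 2 residual degrees of freedom, plus 2.06 from eBayes. Mouse numbers in the titles pair the kidneys, and deviations from the group means had r = 0.194, 0.481 and 0.271 within mice 495, 485 and 512 and at most 0.0185 between mice. Deviations from a group mean cancel out within the group, which pushes r between mice down, so these values are no test of the pairing. For mouse 512, animal and slide cannot be told apart. The number of arrays limits the precision.

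The members, the other gene lists and the motifs were chosen with earlier results of these data known, so counts over them are descriptions. Levels in every kidney are given for the largest and smallest change per complex, complex II, Cycs, Cyc1, isoform sets and members that rose. From each other list the 3 called genes with the largest change are named, or with none called the one with the smallest p. Umod, Kap and Esrra's levels, and list genes beyond this rule, were picked with their values in view. Alternatives varied the scaling, background correction, filter, probe choice, gene names, blocks and the mice in the fit.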

Additional observations from a re-analysis of the deposited data

How the results depend on the processing

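Against 63 members called lower and 1 higher, scaling to the spike-in spots gave 6 and 0 (complex I 1, II 1, III 2, IV 1, V 0, and higher in complex IV 0). The complex IV gene is Cox7a1. At an unadjusted p under 0.05, 44 members were lower, while 5644 of 19599 genes passed in either direction. Quantile normalization gave 26 (I 13, III 3, IV 1, V 2) with medians of -0.57 for all subunits, -0.57 for complex I, -0.70 for III, -0.46 for IV and -0.50 for V. Testing dim probes too gave 4 lower and 0 higher (I 2, II 0, III 0, IV 1, V 0). It raised the number of genes tested to 28468. At an unadjusted p under 0.05, 76 members were lower, while 11042 of all genes passed in either direction. Leaving out a mouse gave 0 to 78 lower and 0 to 1 higher (complex I 0 to 35, II 0 to 4, III 0 to 8, IV 0 to 13 lower and 0 to 1 higher, V 0 to 15). Without the replicate block 73 fell and 0 rose, so the call on Cox6b2 in complex IV was lost (0 higher there), and no other call was ended by dropping the pairing. With slide as the block 77 fell; within slide 1, which is the fit without mouse 512, 78 fell, and slide 2 holds 1 pair. Signs turned for Cox6a2 (-0.12 with median centring and with the value table, -0.044 with quantile normalization) and, with quantile normalization, for Ndufa7 (0.15) and Cox7a2l (0.22). The cause was not tested. Centring on the median moved the median of all genes to -0.32 and the spike-in spots to 0.26; relative to it the members' median was -1.23 under both and as reported, but -0.58 after quantile normalization. The median of each complex kept its direction under every alternative run.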
